A study of Homo sapiens with 3 samples.

Results

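The Wnt genes examined here are the 46 genes of the deposited table, out of 17448, whose symbols name a Wnt ligand, a Frizzled receptor or 1 of 21 listed pathway components: the co-receptors LRP5 and LRP6, the receptors ROR1, ROR2 and RYK, the Dishevelled genes, the destruction complex genes AXIN1, AXIN2, APC and GSK3B, the TCF/LEF factors, the inhibitors SFRP1 and DKK1, the ubiquitin ligases RNF43 and ZNRF3, and PORCN. They were chosen by name, with earlier results of these data known. RNA came from H128, an established human SCLC cell line, and was taken 48 h after transfecting either siCont or an siRNA against ESRRG, the gene that encodes ERRγ, in 1 library per condition labelled siCont, siERRG2 and siERRG3. All 3 libraries are transfected cultures of the same line, and the labels do not say which of the designed ESRRG siRNAs went into which library. With 1 library per condition there is no replicate check, so differences were set only against counting error.

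Wnt proteins are secreted lipid-modified ligands that bind Frizzled receptors together with LRP5 or LRP6, or with ROR and RYK receptors. In the canonical branch the signal passes through Dishevelled, stops the destruction complex from degrading β-catenin, and lets β-catenin act with TCF/LEF factors on target genes. Without LRP5 or LRP6, Wnt signals act on cell polarity and movement, which is the planar cell polarity branch.

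The rounded counts summed to 19861937 in siCont, against 19900580 in siERRG2 and 20016780 in siERRG3. ESRRG had 806 counts in siCont, against 211 in siERRG2 and 230 in siERRG3, so the targeted gene was at 0.259 (0.221 to 0.302) and 0.281 (0.241 to 0.325) of siCont. The neuroendocrine genes NEUROD1, INSM1, CHGA, SYP and NCAM1 had between 2751 and 10359 counts in every library. The epithelial markers EPCAM and CDH1 had 13 to 28 counts, the keratins KRT8 and KRT18 had 45 to 175, and the leukocyte markers PTPRC, CD3E and LYZ had 21 to 70. Of the stromal markers, PDGFRB had 4 to 5 counts, PECAM1 had 20 to 27 and VWF had 0 to 1, whereas COL1A2 had 2043 to 2896, COL1A1 had 127 to 181 and LUM had 58 to 183. CDH5, which marks endothelial cells, had 1456 counts in siCont, against 1623 in siERRG2 and 585 in siERRG3. The part of these genes in the Wnt results was not tested.

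The Dishevelled genes were the most abundant Wnt genes in H128 cells, and the ligand genes other than WNT10B stayed below an expression value of 1 in siCont, as did FZD2, FZD4, FZD8, ROR1 and TCF7L1. Of the 46 genes, 36 reached 10 counts in some library and were compared, 24 had a mean of at least 50 counts, and 10 stayed under 10 counts in every library. Levels of different genes were compared on the deposited expression value, which scales counts for transcript length and library size and behaves as FPKM. In siCont the highest was DVL1, a Dishevelled adaptor that relays the signal from the receptor, at 66.0 (95% exact Poisson interval 63.9 to 68.1). DVL3 followed at 26.2 and DVL2 at 25.7, and their intervals overlapped. LEF1 at 15.3, RYK at 15.2, AXIN1 at 14.8, LRP5 at 14.8 and FZD7 at 14.2 came next, and none of these neighbours differed beyond its interval. GSK3B was at 12.6, PORCN at 9.80, TCF7L2 at 9.03 and APC at 8.77. Such intervals cover counting error only.

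**Figure D1:**
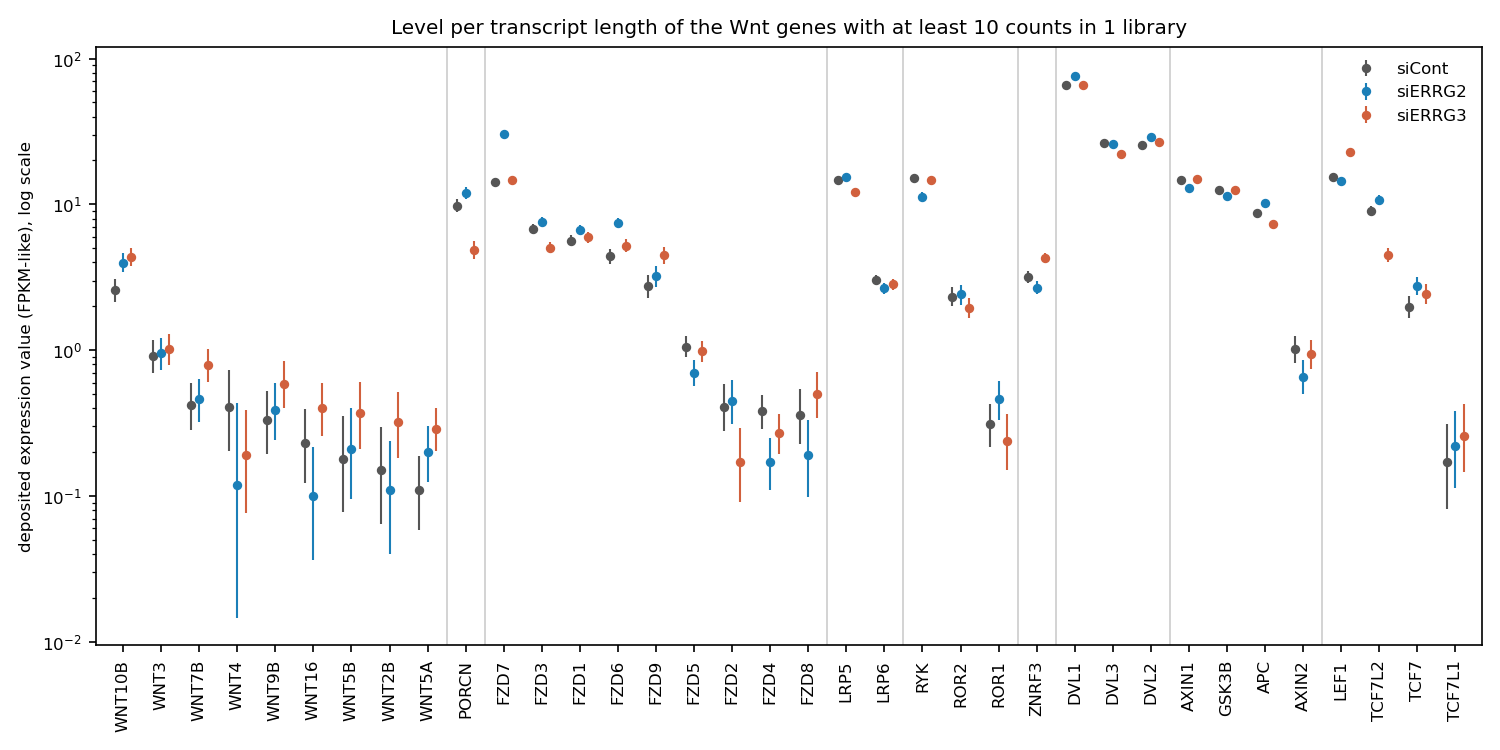
Expression value per transcript length (FPKM-like, log scale) of the 36 Wnt genes that reached 10 counts in any library, in siCont (grey), siERRG2 (blue) and siERRG3 (orange), grouped by role with the highest gene of each role first. Bars are 95% exact Poisson intervals of the count. DVL1 is highest at 66.0 in siCont, and most ligands lie below 1.

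A gene was called lower or higher than siCont where its log2 CPM differed by at least 1.2-fold and the 95% exact binomial (Clopper-Pearson) interval of its scaled count ratio was clear of 1. Such a call compares libraries and not conditions. In siERRG2, 6 of the 36 Wnt genes were lower and 5 were higher, against 12.8% and 10.2% of the 14031 genes tested. In siERRG3, 7 were lower and 6 were higher, against 19.9% and 17.1%. These shares, 16.7% and 13.9% in siERRG2 and 19.4% and 16.7% in siERRG3, lay near those of all genes. In both libraries 0 Wnt genes were lower, against 4.90% of all genes, and 1, WNT10B, was higher, against 3.27%. By fold alone, 9 were lower and 7 higher in siERRG2 (all genes 19.2% and 16.4%), 10 were lower and 12 higher in siERRG3 (25.1% and 23.2%), and 2 were lower and 2 higher in both (7.88% and 7.26%). The genes lower in both by fold alone were FZD4 and WNT4, and those higher in both were WNT10B and WNT5A. WNT4, also among the 6 called lower in siERRG2, reached 10 counts only in siCont, so the filter fixed its side. The median log2 fold change of the Wnt genes was 0.12 in siERRG2 and 0.014 in siERRG3, beside -0.00038 and -0.0033 for all genes tested. The same siCont library is the denominator of both ratios. Of the 22 Wnt genes called in either library, 20 (90.9%) were called in 1 library only, 9 in siERRG2 and 11 in siERRG3. Of the 6850 genes of the whole table called in either, 77.3% were called in 1 library only. The difference between these shares was not tested. A call in 1 library only does not by itself separate the siRNA libraries. TCF7 and AXIN2 were called in siERRG2 only. Their siERRG3 to siERRG2 ratios were 0.847 (0.679 to 1.06) and 1.37 (0.966 to 1.96), not separated by counting error. FZD7, also called in siERRG2 only, was separated, with 0.481 (0.448 to 0.516).

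The ligand genes were mostly low, and WNT10B was the most abundant of them. Of the 16 ligand genes in the table, 2 had a mean of at least 50 counts and 7 stayed under 10 counts in every library: WNT1, WNT2, WNT3A, WNT8B, WNT9A, WNT10A and WNT11. WNT10B, a canonical ligand, had 118 counts in siCont, against 177 in siERRG2 and 196 in siERRG3. It was higher in both siRNA libraries, with ratios to siCont of 1.48 (interval 1.17 to 1.89) and 1.63 (1.29 to 2.07). The siERRG3 and siERRG2 values of WNT10B were not separated by counting error, with a ratio of 1.10 (0.894 to 1.36). WNT10B counts were not whole numbers, and the extent of the gene in the table, chromosome 12 from 48963745 to 48985826 in GRCh38 coordinates, contains that of WNT1 and overlaps CCDC65. These neighbours had at most 8 counts in any library.

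WNT3, another canonical ligand, had 61, 64 and 69 counts (given throughout in the order siCont, siERRG2, siERRG3), and both of its ratios were within counting error. WNT7B had 31, 35 and 61 counts and was higher in siERRG3 (ratio 1.94, interval 1.24 to 3.09). WNT5A, the best-known ligand of the β-catenin-independent branch, had 13, 22 and 36 counts and was also higher in siERRG3 (ratio 2.72, interval 1.41 to 5.60), while its interval in siERRG2 was 0.806 to 3.62. WNT16 (13, 6 and 24 counts) was the ligand whose siRNA libraries lay farthest apart, with a siERRG3 to siERRG2 ratio of 3.98 (1.58 to 11.9).

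WNT4 is a ligand gene that the study names among key extracellular matrix genes, beside MMP9, CNTN2 and NECTIN2. It had 11 counts in siCont, against 2 in siERRG2 and 7 in siERRG3. The siERRG2 ratio was 0.180 (0.0194 to 0.824) and the siERRG3 ratio 0.626 (0.206 to 1.77). The siERRG2 call of WNT4 was lost with a 99% interval. A fall of WNT4 in siERRG3 was therefore not detectable at this depth. The table places WNT4 on chromosome 1 from 22117305 to 22148775, and its extent overlaps that of CDC42, which had 7414, 5493 and 8139 counts. WNT9B (18, 21 and 31 counts), WNT5B (8, 9 and 16) and WNT2B (8, 6 and 16) had intervals that included 1 in both libraries.

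Summed over the 16 ligand genes, there were 293 counts in siCont, against 355 in siERRG2 and 470 in siERRG3. The summed ratio in siERRG2 was 1.198, with an interval of 1.02 to 1.40. In siERRG3 it was 1.58 (1.36 to 1.83). WNT10B carried the siERRG2 sum: without it the other 15 ligands had 175 and 178 counts in siCont and siERRG2, at a ratio of 1.01 (0.812 to 1.25). In siERRG3 they had 274 counts, at a ratio of 1.54 (1.27 to 1.87). Of the 9 ligands compared, 6 had a log2 fold change above 0 in siERRG2 and 8 in siERRG3, where WNT4 was the exception. Of all genes tested, 49.9% and 49.6% did. WNT2B and WNT5B reached the minimum count for comparison only in siERRG3, and WNT4 reached it only in siCont. The filter thus fixed the side of siCont on which these ligands lay in siERRG3, and that of WNT4 in siERRG2 as well. The number of ligands above 0 in either library therefore cannot show whether the ligands shifted as a group. Most of the ligands rest on few counts, and 3 of the 9 were called higher in siERRG3, beside 17.1% of all genes.

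**Figure D2:**
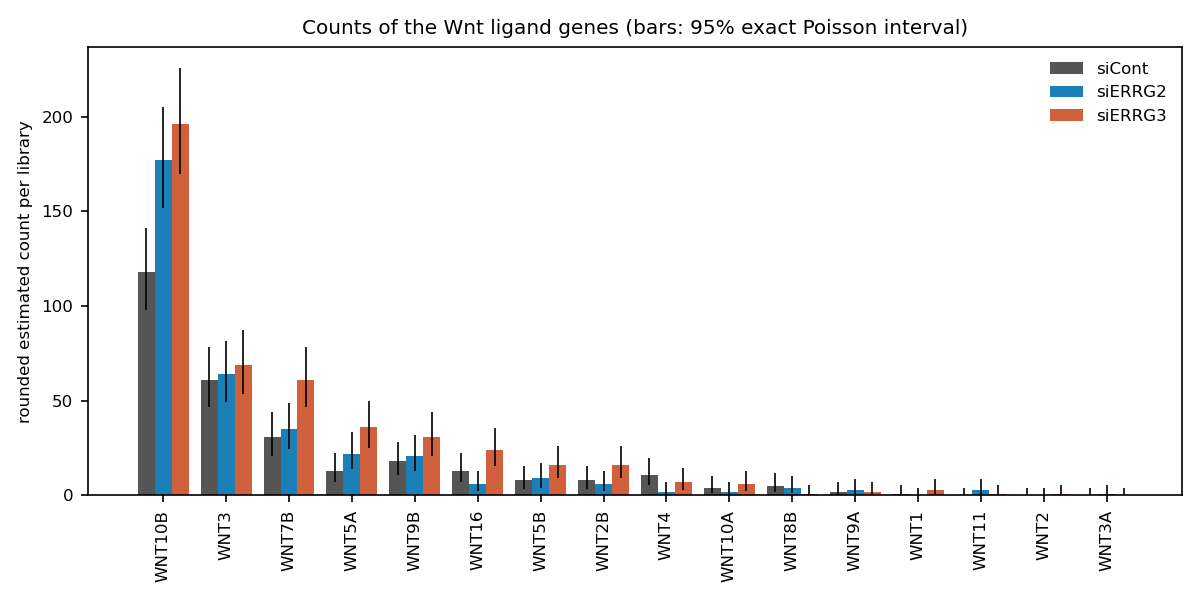
Rounded estimated counts of the 16 Wnt ligand genes in each library, with 95% exact Poisson intervals as error bars. WNT10B has 118, 177 and 196 counts, in that order, and WNT4 has 11, 2 and 7.

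PORCN, the acyltransferase that attaches the lipid needed for secretion of Wnt ligands, lay on opposite sides of siCont in the siRNA libraries. It had 377 counts in siCont, against 453 in siERRG2 and 189 in siERRG3. It was lower in siERRG3, with a ratio of 0.493 (0.412 to 0.589), and its siERRG2 ratio of 1.19 (1.03 to 1.37) was above counting error but short of 1.2-fold. All PORCN counts were whole numbers. EBP, whose extent overlaps PORCN on the X chromosome, had 3414, 3766 and 2860 counts. The ligand sum was highest in the library in which PORCN was lowest, and a link between them was not tested.

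The Frizzled receptors had a higher summed level in siERRG2 than in the other libraries, and FZD7 made up 53.6% of the summed expression value there. Of the 9 genes, 2 were called higher and 2 lower in siERRG2, beside 10.2% and 12.8% of all genes tested. The sum without FZD7 was not computed. The summed counts of the 9 genes were 2963 in siCont, against 4587 in siERRG2 and 2989 in siERRG3, with summed ratios of 1.53 (1.46 to 1.60) and 0.992 (0.943 to 1.04). FZD7, the most abundant Frizzled gene, had 1094, 2362 and 1142 counts. It was higher in siERRG2, with a ratio of 2.13 (1.99 to 2.30), the largest rise of a Wnt gene in that library, and within counting error in siERRG3, with 1.03 (0.944 to 1.12). The table places FZD7 on chromosome 2 from 202034587 to 202038437. KIAA2012, whose extent overlaps it, had 41, 104 and 115 counts. FZD6, which takes part in planar cell polarity, followed FZD7 with 316, 538 and 373 counts and a siERRG2 ratio of 1.68 (1.46 to 1.94). All FZD6 counts were whole numbers. DCAF13 and SLC25A32, whose extents overlap FZD6, had 1238, 1491 and 1528 counts and 1279, 1618 and 1145 counts.

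FZD5 (142, 97 and 139 counts) and FZD4 (57, 25 and 41) were lower in siERRG2, with ratios of 0.675 (0.516 to 0.880) and 0.434 (0.260 to 0.705). FZD3 (680, 786 and 514) was lower in siERRG3, with 0.743 (0.662 to 0.835), as was FZD2 (31, 34 and 13), with 0.412 (0.198 to 0.811). FZD9, with expression values of 2.75, 3.21 and 4.47, was higher in siERRG3 at a ratio of 1.61 (1.29 to 2.03). FZD1 (492, 583 and 525) and FZD8 (23, 12 and 32) were called in neither library. On the expression value, FZD7 made up 39.4% of the summed Frizzled level in siCont, against 53.6% in siERRG2 and 39.4% in siERRG3, whereas FZD9 made up 7.65%, 5.63% and 11.99%. The counts of FZD1, FZD2, FZD3, FZD4, FZD5, FZD7 and FZD8 were not whole numbers.

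**Figure D3:**
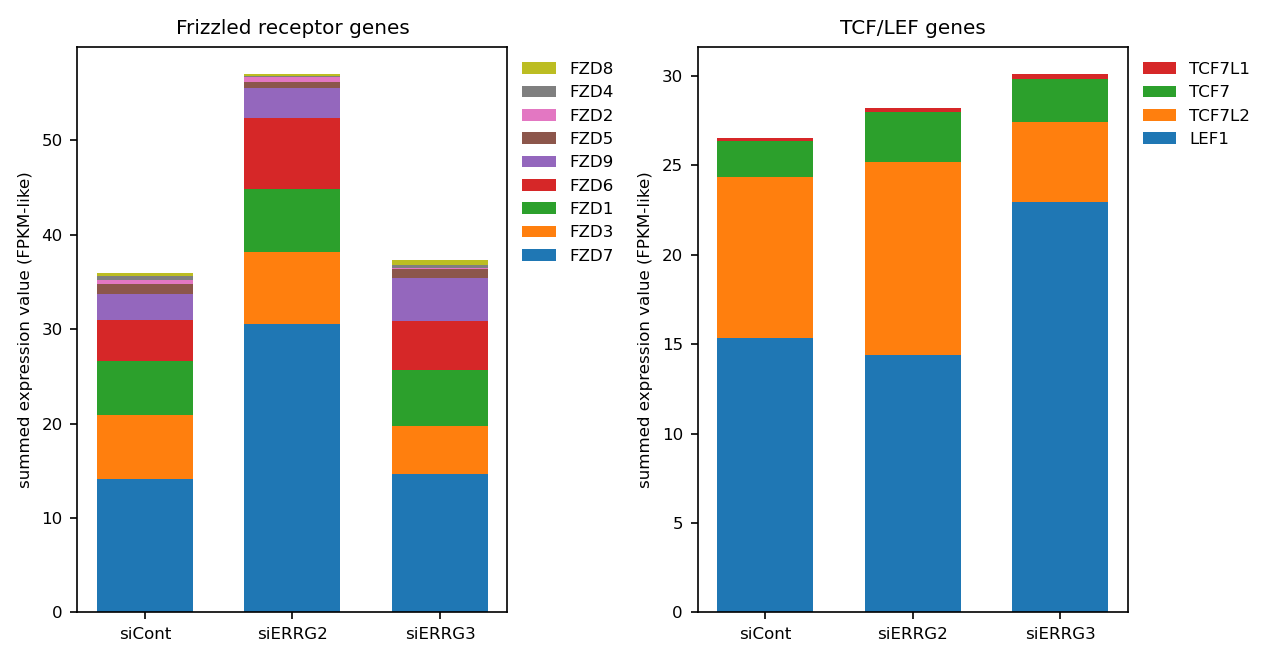
Stacked expression values per transcript length (FPKM-like) of the 9 Frizzled genes and of the 4 TCF/LEF genes in each library, 1 colour per gene. FZD7 takes 39.4% of the Frizzled sum in siCont and 53.6% in siERRG2, and TCF7L2 takes 34.0% of the TCF/LEF sum in siCont and 14.9% in siERRG3.

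Of the co-receptors, LRP5 was separated between the siRNA libraries, with a siERRG3 to siERRG2 ratio of 0.754 (0.697 to 0.814). LRP6 was not, with 1.06 (0.933 to 1.19). LRP5 had 1478 counts in siCont, against 1510 in siERRG2 and 1144 in siERRG3, and was lower in siERRG3 with a ratio of 0.761 (0.704 to 0.823). LRP6 had 611, 509 and 540 counts. It was lower in siERRG2 with 0.824 (0.731 to 0.928), while its siERRG3 ratio of 0.869 (0.773 to 0.977) lay below 1 without reaching 1.2-fold. The LRP6 call was lost on the deposited expression values, where its log2 fold change in siERRG2 was -0.1815 in place of -0.2791. RYK, an atypical receptor of the tyrosine kinase type, had 892, 660 and 864 counts and was lower in siERRG2 with 0.731 (0.660 to 0.810). ROR2 (178, 158 and 151 counts) and ROR1 (35, 44 and 22), receptors for WNT5A, were called in neither library. RYK made up 85.2% of the summed expression value of these 3 receptors in siCont.

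ZNRF3 removes Frizzled receptors from the cell surface and is itself a Wnt target. It had 426 counts in siCont, against 362 in siERRG2 and 579 in siERRG3. It was higher in siERRG3, with a ratio of 1.34 (1.18 to 1.52), and in siERRG2 its ratio of 0.840 (0.728 to 0.969) lay below 1 without reaching 1.2-fold. Its partner RNF43 had 8, 5 and 4 counts, and the secreted inhibitors SFRP1 and DKK1 had at most 1 count in any library, where a comparison was not possible at this depth.

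Of the 7 Dishevelled and destruction complex genes, 1 was called lower in siERRG2 and 2 in siERRG3, beside 12.8% and 19.9% of all genes tested. DVL1 had 3940 counts in siCont, against 4532 in siERRG2 and 3980 in siERRG3, and DVL2 had 1540, 1735 and 1619, and neither was called. DVL3 (2566, 2562 and 2172 counts) was lower in siERRG3 with a ratio of 0.832 (0.786 to 0.882), a call that was lost with CPM from total counts and on the deposited expression values. APC, a component of the destruction complex, had 1864, 2165 and 1553 counts. It was lower in siERRG3 with 0.819 (0.765 to 0.877), while in siERRG2 its ratio was 1.15 (1.08 to 1.22), and the siERRG3 call was lost on the deposited expression values. AXIN1 (976, 863 and 977) and GSK3B (1785, 1617 and 1790) were called in neither library. AXIN2, a feedback inhibitor and a widely used readout of β-catenin activity, had 85, 58 and 80 counts, and was called lower in siERRG2, at a ratio of 0.675 (0.475 to 0.953). That call was lost with a 99% interval. Its siERRG3 ratio was 0.925 (0.673 to 1.27).

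**Figure D4:**
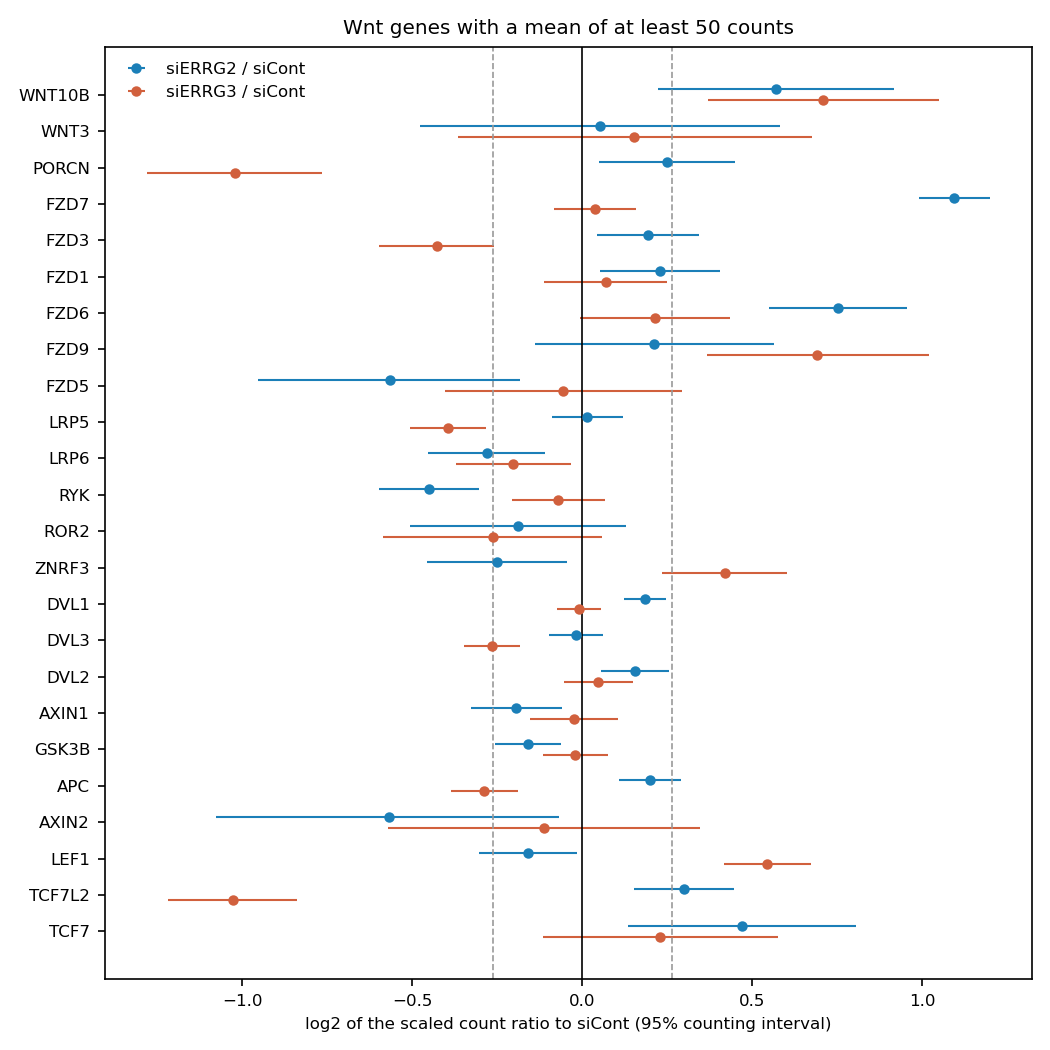
Log2 of the scaled count ratio to siCont of the 24 Wnt genes that averaged at least 50 counts, for siERRG2 (blue) and siERRG3 (orange), with 95% counting intervals. The dashed lines mark 1.2-fold. FZD7 lies at a ratio of 2.13 in siERRG2 and 1.03 in siERRG3, while PORCN and TCF7L2 lie at 0.493 and 0.491 in siERRG3.

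The TCF/LEF factors bind DNA and recruit β-catenin to target genes, and LEF1 and TCF7L2 were the abundant members in H128. TCF7L2 had 695 counts in siCont, against 865 in siERRG2 and 347 in siERRG3. It was the only Wnt gene called in opposite directions, at 1.23 (1.11 to 1.36) of siCont in siERRG2 but 0.491 (0.430 to 0.559) in siERRG3. On the deposited expression values the siERRG2 call, and with it the opposite direction, was lost, at a log2 fold change of 0.2543 in place of 0.2984. LEF1 had 835, 757 and 1238 counts and was higher in siERRG3 with a ratio of 1.46 (1.33 to 1.59). Both genes had whole counts in every library. On the expression value, LEF1 was 1.70 times TCF7L2 in siCont, 1.34 times in siERRG2 and 5.11 times in siERRG3. The summed TCF/LEF counts varied less, with 1670, 1816 and 1755. TCF7 (130, 182 and 155 counts) was higher in siERRG2 with 1.38 (1.10 to 1.75), and TCF7L1 had only 10, 12 and 15 counts. VTI1A and ZDHHC6, whose extents overlap that of TCF7L2, had 664, 691 and 602 counts and 910, 916 and 1052 counts.

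Promoter sequences were taken from RefSeq (GRCh38.p14), which held 44 windows for 35 of the 46 genes, each of 250 bases before and 50 bases after a transcription start. Both strands were searched for AAGGTCA, the core motif bound by estrogen-related receptors, and for its extended form TNAAGGTCA. They were also searched for the TCF/LEF motif CTTTGAT and for its variant CTTTGTT. The core motif AAGGTCA was found in 2 of the 44 windows, those of TCF7 and WNT16, against 3.92% of all 35116 windows, and only the TCF7 window held the extended form, which contains the core, against 0.951%. CTTTGAT was found in 0 windows (2.62% of all), and CTTTGTT in 4 (5.20% of all), those of DKK1, TCF7, TCF7L2 and WNT3. A match is a description of letters, not a bound site. The 3 stretches upstream of the start are shown for TCF7 and TCF7L2 because they hold a motif and were called in siERRG2, and for WNT4 because the study names it. Where a gene had several starts, a window holding a match was taken. Capitals mark the matches. The TCF7 stretch, at chr5:134115493-134115612 on the plus strand, is at 1 of 2 starts and holds the reverse complement of TNAAGGTCA, beginning 37 bases before the start. The CTTTGTT match of TCF7 lies in the window of its other start. The TCF7L2 stretch, at chr10:113126473-113126632 on the plus strand, is at 1 of 3 starts and holds CTTTGTT. That start lies inside the extent of TCF7L2 in the table, 112447188 to 113167928. The WNT4 stretch, at chr1:22143098-22143217 on the minus strand, holds none of the motifs. The paper reports ERRγ binding at WNT4 from public ChIP-seq and from ChIP-qPCR in H128, where the ERRγ antagonist DN200434 lowered it. It also reports that DN200434 lowered H3K27ac, a histone mark of active transcription, at WNT4 and other genes. Those sites were not located here, and so short a stretch cannot show that binding is absent.
TCF7: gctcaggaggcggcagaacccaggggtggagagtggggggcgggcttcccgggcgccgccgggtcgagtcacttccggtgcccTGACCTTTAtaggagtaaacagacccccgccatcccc
TCF7L2: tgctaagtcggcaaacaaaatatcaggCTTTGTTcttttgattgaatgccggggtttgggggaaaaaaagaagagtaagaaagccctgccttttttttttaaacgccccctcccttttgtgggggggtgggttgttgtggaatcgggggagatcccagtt
WNT4: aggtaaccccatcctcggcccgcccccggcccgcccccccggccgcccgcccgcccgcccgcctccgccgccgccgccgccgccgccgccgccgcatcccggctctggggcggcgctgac

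The siRNA libraries were also compared with each other, which does not use siCont. Of the 36 Wnt genes, 9 were lower and 8 were higher in siERRG3 than in siERRG2, which is 25.0% and 22.2%, against 20.4% and 19.6% of all genes tested. The lower genes were TCF7L2 (ratio 0.399, interval 0.351 to 0.452), PORCN (0.415, 0.348 to 0.493), FZD7 (0.481, 0.448 to 0.516), FZD2, FZD3, FZD6, ROR1, APC and LRP5. The higher genes were LEF1 (1.63, 1.48 to 1.78), ZNRF3 (1.59, 1.39 to 1.82), FZD5, FZD8, FZD9, RYK, WNT7B and WNT16. ESRRG itself was not separated between the libraries, with a ratio of 1.08 (0.896 to 1.31).

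A wider list of 91 other Wnt pathway genes, drawn up with earlier results of these data known, was compared in the same way. Under the symbols searched, 83 of them were found, and 70 reached 10 counts in some library. In siERRG2, 19 of the 70 were lower and 4 were higher, or 27.1% and 5.71%, beside the 12.8% and 10.2% of all genes given above. In siERRG3, 21 were lower and 12 were higher, or 30.0% and 17.1%, beside 19.9% and 17.1% of all genes. The median log2 fold change of the 70 genes was -0.089 in siERRG2 and -0.077 in siERRG3. In both libraries 6 genes were lower, which is 8.57% beside 4.90% of all genes, and 1 was higher, or 1.43% beside 3.27%.

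The genes lower in both were spread over several roles. EPHB2, an ephrin receptor and known Wnt target, had 2785 counts in siCont, against 1431 in siERRG2 and 1898 in siERRG3, with ratios of 0.508 (0.476 to 0.542) and 0.670 (0.632 to 0.711). DACT3, a modulator of Dishevelled, had 251, 154 and 129 counts, with 0.607 and 0.505. VANGL2, a core planar cell polarity protein, had 313, 244 and 138 counts, with 0.771 and 0.434. CELSR2, a polarity cadherin, had 1755, 1124 and 1484 counts, with 0.633 and 0.832. AMER1, a partner of APC in the destruction complex, had 532, 442 and 257 counts, with 0.821 and 0.475. TNKS, a tankyrase that marks AXIN for degradation, had 1319, 1081 and 1108 counts, with 0.810 and 0.826. FRAT2, a GSK3-binding protein, was the gene higher in both, with 527, 666 and 659 counts and ratios of 1.25 and 1.23. The siERRG3 calls of CELSR2 and TNKS, and so their calls in both libraries, were lost with CPM from total counts, at log2 fold changes of -0.2529 and -0.2623. The siERRG2 call of AMER1 was lost on the deposited expression values.

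CTNNB1 encodes β-catenin and is named here after its values were seen. It had 4041 counts in siCont, against 4215 in siERRG2 and 2236 in siERRG3, with ratios of 1.03 (0.987 to 1.08) and 0.544 (0.516 to 0.573). TNKS2 (1389, 1671 and 701 counts), VANGL1 (ratios of 1.09 and 0.428) and CTBP2 (1782, 1918 and 935), named in the same way, were also lower in siERRG3 and not in siERRG2. Among the 11 known target genes compared, 2 were lower and 0 higher in siERRG2, beside 12.8% and 10.2% of all genes tested. In siERRG3, 3 were lower and 3 higher, beside 19.9% and 17.1%. CCND1, a cyclin, was lower in siERRG3 (2791, 3150 and 2049 counts), as did ID2 (3590, 4063 and 1686), whereas SOX9 (340, 313 and 610) and CD44 (56, 53 and 143) were higher there. MYC had 21392, 20392 and 22528 counts and was called in neither library. The target genes lay on both sides of siCont in siERRG3, and a link to the lower CTNNB1 and TCF7L2 there was not tested. ZNRF3 and AXIN2, compared above with the Wnt genes, are not among the 11. Of the 11 planar cell polarity and accessory receptors compared, 4 were lower and 3 higher in siERRG3, beside 19.9% and 17.1% of all genes. PRICKLE2 (161, 165 and 355 counts) and CELSR3 (1311, 1444 and 1933) were among those higher.

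**Figure D5:**
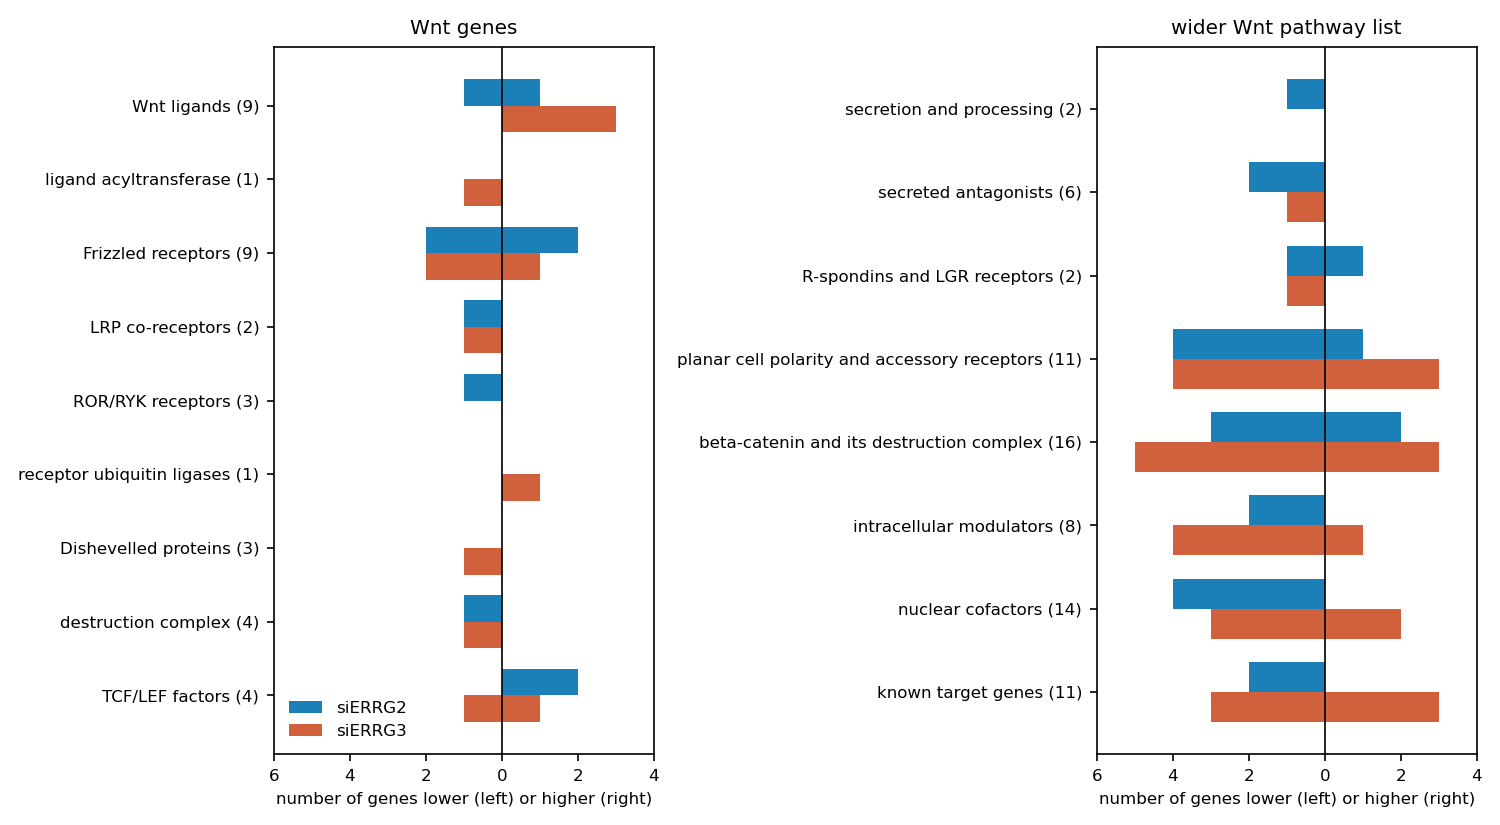
Number of genes called lower (left of 0) or higher (right of 0) than siCont in siERRG2 (blue) and siERRG3 (orange), by role, for the Wnt genes and for the wider Wnt pathway list. The number in parentheses is the number of genes compared. Of the 11 known target genes, 3 are lower and 3 higher in siERRG3, while 2 are lower in siERRG2. Of all genes tested, 19.9% are lower and 17.1% higher in siERRG3, and 12.8% are lower in siERRG2.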

How the data were processed

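RNA of H128 cells was measured in 3 libraries, 1 per condition. The authors deposited 1 table with an estimated count (expected count) per gene, made from aligned reads and not normalized. Beside it the authors deposited an expression value of unnamed unit, which behaves as FPKM. The methods name BWA and Bowtie 2 as aligners and GRCh37/hg19 as the genome, whereas the submitters' processing notes name TopHat2, HTSeq and DESeq2, and the coordinates of the table are those of GRCh38. The extents of all 46 Wnt genes overlapped those of RefSeq's GRCh38.p14 gene table. Whether counting used strand is not given in the sources used here, so reads of overlapping genes cannot be told apart, and 18 of the 46 genes had a count that was not whole. The 6 columns of the authors' own comparisons were not used.

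Counts were rounded, genes reaching 10 counts in any library were kept (14031), and libraries were scaled with TMM (edgeR 4.0.16, R 4.3.3). Fold changes are differences of log2 CPM with a prior count of 2, which draws those of low counts towards 0. Intervals are at 95% (SciPy 1.17.1) and cover counting error only. The computations were checked on simulated data. Members and gene lists were chosen with earlier results of these data known. Full values are given for Wnt genes that averaged at least 50 counts and were called in either library, for WNT4 and for the highest gene of each role, and for genes of the wider list called the same way in both libraries. Other genes given with values were chosen after their values were seen. Of the wider list, 8 genes were not found under the symbols searched and were not analysed here. TLE5 was 1 of them, although the table lists its older symbol AES. Alternatives were CPM from total counts, size factors of DESeq2 1.42.0, a prior count of 0.5, no filter, a filter at a mean of 50 counts with the scaling recomputed, folds of 1.5 and 2, a 99% interval, the interval alone, and the deposited FPKM-like values with a pseudocount of 0.1.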

Additional observations from a re-analysis of the deposited data

Results flagged for a closer look

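Genes were singled out where the siERRG2 and siERRG3 libraries lay on opposite sides of siCont, each by at least 1.2-fold and beyond counting error, with a mean of at least 50 counts. TCF7L2 was the Wnt gene of this kind, and its log2 ratio of siERRG3 to siERRG2 was -1.32. Its siERRG2 call was lost on the deposited expression values. In the wider list, LGR4, a receptor for R-spondins, had 125 counts with siCont, 225 with siERRG2 and 95 with siERRG3, and a log2 ratio of -1.23, and its siERRG3 call was lost with a 99% interval. PTK7, a planar cell polarity receptor, had 471, 594 and 378 counts and -0.66, and TLE1, a corepressor of TCF/LEF factors, had 409, 333 and 626 counts and 0.90. Under the same filter, opposite calls made up 4.17% of the 24 Wnt genes and 5.26% of the 57 wider list genes, beside 3.53% of all. With 1 library per siRNA, the difference between the siRNAs was not tested.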

How the results depend on the processing

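Counts by fold alone depended on the threshold and the filter. With a mean of at least 50 counts, 4 Wnt genes were lower in siERRG2, 5 were lower and 4 higher in siERRG3, 0 were lower and 1 higher in both, and 5 were higher in siERRG3 than in siERRG2 beyond the interval. At 1.5-fold, 4 were lower and 3 higher in siERRG2, 4 were lower in siERRG3, and 0 were lower and 1 higher in both. At 2-fold the counts were 2 and 1 in siERRG2, 3 and 1 in siERRG3, and 0 and 0 in both. With the interval alone and no fold, 10 were lower and 11 higher in siERRG2 and 1 was lower in both. In the wider list, at 1.5-fold 11 were lower and 1 higher in siERRG2, 13 and 7 in siERRG3, and 1 and 0 in both, and at 2-fold 3 and 0, 5 and 4, and 0 and 0. With a mean of at least 50 counts, 4 were higher in siERRG2, and 4 were lower and 1 higher in both. Without a filter, 15 were higher in siERRG2 and 4 in both, and on the deposited expression values 1 was higher in both. The thresholds and the unfiltered setting ask for another fold or test more genes by construction. The filter at a mean of 50 counts also recomputed the scaling, by which DVL3, CELSR2 and TNKS fell short of 1.2-fold in siERRG3 (-0.2498, -0.2512 and -0.2606 on the log2 scale). With the scaling kept, the same filter gave 6 Wnt genes lower in siERRG3 and 6 genes of the wider list lower in both. These were 25.0% and 10.5%, beside 24.3% and 6.24% of all genes under that filter. For the other alternatives the shares of all genes were not computed. For the expression values the cause was not tested. A 99% interval lowered the Wnt genes called lower in siERRG2 from 6 to 4, without AXIN2 and WNT4. Among single genes, LRP5 in siERRG3 moved to -0.28 on the deposited expression values, and the other values of named genes stayed within their counting intervals, although calls near 1.2-fold were lost as given with the genes. The ligand sum without WNT10B, chosen after seeing the data, moved the siERRG2 ratio to 1.006. In 0 of these results did the direction of a called value turn. No paired analysis was possible because there was 1 library per condition.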
